A study of Mus musculus with 41 samples.

Results

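Ex-Foxp3 cells, which had expressed Foxp3 and no longer did, were set against post-tamoxifen regulatory T (Treg) cells of mice with a floxed Uhrf1 gene. Of the 41 mouse RNA-seq libraries of the series, 12 belong to this comparison, 6 of each population, and were chosen by genotype and by the pair of reporters in their names. All 12 came from 8-week-old mice of the genotype Uhrf1fl/fl Foxp3GFP-CreERT2 Rosa26SorCAG-tdTomato (iUhrf1fl/fl), fed tamoxifen chow for 2 weeks and then standard chow for 4 weeks. The ex-Foxp3 cells were sorted as Foxp3-GFP–tdTomato+, and the post-tamoxifen Treg cells as Foxp3-GFP+tdTomato–. Other libraries were used beside them. The 10 libraries of the same populations from control mice, 5 of each, carried Uhrf1+/+ with the same Cre and reporter alleles and the same feeding. The 6 labeled Treg libraries of the floxed mice (Foxp3-GFP+tdTomato+) are given as levels. Cre was driven by Foxp3 and active during tamoxifen feeding in all of these mice, so tdTomato marks cells that made Foxp3 and recombined then. A tdTomato-negative Treg cell may have turned on Foxp3 after the feeding or may have escaped recombination. In the floxed mice the populations therefore differ in Foxp3, in Cre recombination at Uhrf1 and in the age of the cells as Treg cells, and these cannot be told apart.

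Foxp3 is the transcription factor that sets and holds the Treg program: it keeps the IL-2 receptor and CTLA-4 high and cytokine and helper genes low. Its expression is held in dividing cells by demethylation of an enhancer in the Foxp3 gene. UHRF1 binds hemimethylated DNA behind the replication fork and brings in DNMT1, so that methylation is copied to the daughter strand. Loss of Foxp3 from formerly committed Treg cells gives ex-Foxp3 cells, which have been described as memory-like T cells that can make effector cytokines.

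Levels are given as CPM, the count scaled to a common library size with TMM factors, and log2 fold changes are ex-Foxp3 over post-tamoxifen from edgeR's quasi-likelihood test with the shared replicate number as a block. A gene was called at an adjusted p under 0.05 (Benjamini-Hochberg over all genes tested). Total counts ran from 2095699 to 2665449 per ex-Foxp3 library and from 1172214 to 2600299 per post-tamoxifen library. All 12 libraries held the T cell genes Cd3e, at 498 to 792 CPM of the total count in ex-Foxp3 and 410.0 to 673 CPM in post-tamoxifen cells, and Cd4. The neutrophil genes S100a8 and S100a9 were at 0 in all 6 ex-Foxp3 libraries and reached 0.44 and 5.72 CPM in post-tamoxifen libraries. Of the NK cell genes, Ncr1 was at 0 in all 12, and Klrb1c was at 0 to 5.82 CPM in ex-Foxp3 and 0 to 1.81 CPM in post-tamoxifen cells. The summed NK cell markers came to 386 to 614 CPM in ex-Foxp3 and 531 to 824 CPM in post-tamoxifen cells. Most of that sum was Il2rb, which is on the marker list and is also the IL-2 receptor chain described below. The libraries with numbers 1 to 3 stood apart from those with numbers 4 to 6, and the labels name no batch behind the numbers. Summed over 31 G2/M genes, post-tamoxifen libraries 1 to 3 held 4279 to 7007 CPM and libraries 4 to 6 held 484 to 806 CPM. Post-tamoxifen library 3 had the highest summed level of macrophage and other myeloid markers, 1658 CPM against 379 to 793 CPM in the other 5, and the lowest Treg core sum, 3903 against 6154 to 6931 CPM. Among controls, the library labelled post-tamoxifen number 2 went against its label, with Foxp3 at 123 CPM where the other 4 had 364 to 536 CPM and the 5 ex-Foxp3 control libraries 79.2 to 151 CPM.

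Of 9212 genes tested, 1626 (17.7%) were called: 685 (7.44%) were higher and 941 (10.2%) lower in ex-Foxp3 cells. Without the replicate block 1046 were called, 375 higher and 671 lower. Leaving out the pair that holds post-tamoxifen library 3 gave 1382 calls, 603 higher and 779 lower. The median log2 fold change over all genes tested was 0.01. Fitted alone, numbers 1 to 3 gave 2024 calls and numbers 4 to 6 gave 1634. Of these, 658 genes were called in both, 32.5% of the first set and 40.3% of the second, with 289 higher in both, 325 lower in both and 44 in opposite directions.

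The gene that defines the sort followed the labels. Foxp3 (chrX:7579676-7595243, mm10) stood at 13.3 to 113 CPM (median 67.4) in ex-Foxp3 cells, against 127 to 458 CPM (median 377) in post-tamoxifen cells. The ranges did not overlap, and the fitted level was 6.25-fold lower in ex-Foxp3 cells, a log2 fold change of -2.64 ± 0.20 (SE, adjusted p = 4.42e-05). Foxp3 was highest in the post-tamoxifen libraries 4 to 6, at 426 to 458 CPM, and lowest in library 3. Labeled Treg cells of the same mice had 317 to 507 CPM (median 359). Uhrf1 was measured at 6.98 to 26.2 CPM (median 15.1) in ex-Foxp3 cells, against 18.9 to 155 CPM (median 78.5) in post-tamoxifen cells. Its ranges overlapped, and the log2 fold change was -2.13 ± 0.48 (SE, adjusted p = 0.0309). The labels do not say which exons are floxed, so a count taken across the gene may miss a deletion. In control mice, whose Uhrf1 is not floxed, the log2 fold change was -0.57 ± 0.31 (SE, adjusted p = 0.357), from medians of 16.3 CPM in ex-Foxp3 and 22.1 CPM in post-tamoxifen cells, and -0.90 ± 0.30 (SE, adjusted p = 0.0762) without control pair 2. The Uhrf1 call of the floxed mice was lost when pair 1, 3 or 6 was left out and in pairs 2, 4, 5 and 6 alone. Uhrf1 is also expressed with DNA replication, and replication genes were lower in ex-Foxp3 cells too; recombination and fewer dividing cells cannot be told apart here. As in any bulk library, fewer cells of a type and less RNA per cell cannot be told apart either.

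The Treg core list was lower in ex-Foxp3 cells. Of its 31 genes tested, 19 fell and 1 rose, against 10.2% and 7.44% of all genes, and the list's median log2 fold change was -0.65. Il2ra, the chain that makes the IL-2 receptor high-affinity, was at 89.6 to 139 CPM (median 111) in ex-Foxp3 cells, against 281 to 713 CPM (median 609.5) in post-tamoxifen cells. Lrrc32, which encodes GARP, the surface carrier of latent TGF-beta, was at 17.6 to 43.1 CPM (median 25.4) in ex-Foxp3 cells, against 55.3 to 199 CPM (median 139.5) in post-tamoxifen cells. Every ex-Foxp3 library lay below every post-tamoxifen library for both genes, and their log2 fold changes were -2.33 ± 0.12 (SE, adjusted p = 1.16e-08) and -2.33 ± 0.17 (SE, adjusted p = 2.63e-07). Ctla4, the inhibitory receptor that competes with CD28 for its ligands, was at 83.3 to 134 CPM (median 115) in ex-Foxp3 cells, against 141 to 305 CPM (median 221) in post-tamoxifen cells, again without overlap. Its log2 fold change of -0.98 ± 0.12 (SE, adjusted p = 5.04e-05) was smaller than that of Il2ra. Lad1, ladinin, showed the largest fall of the list, log2 fold change -4.83 ± 0.39 (SE, adjusted p = 2.11e-07), with 0 to 2.30 CPM in ex-Foxp3 cells, against 9.08 to 54.4 CPM in post-tamoxifen cells. Labeled Treg cells had a median of 4.09 CPM of Lad1, nearer to the ex-Foxp3 level.

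The fall did not reach the whole list. Ikzf2, which encodes the Treg factor Helios, stood at 635 to 1549.9 CPM (median 1073) in ex-Foxp3 cells, against 401 to 1107 CPM (median 1005) in post-tamoxifen cells, with a log2 fold change of 0.16 ± 0.19 (SE, adjusted p = 0.633). Nt5e, the ectonucleotidase CD73 that makes adenosine, was at 202 to 351 CPM (median 283) in ex-Foxp3 cells, against 169.9 to 293 CPM (median 259.9) in post-tamoxifen cells and was not called either, log2 fold change 0.10 (adjusted p = 0.53). Nrp1, a surface receptor of thymus-derived Treg cells, was the member that rose, with a log2 fold change of 0.44 (adjusted p = 0.000189), and is named here after its values were seen. The Treg core sum overlapped between the populations, at 3610 to 5337 CPM in ex-Foxp3 cells, against 3903 to 6931 CPM in post-tamoxifen cells. It overlapped through post-tamoxifen library 3 alone, and without pair 3 the list counted 19 lower and 2 higher of 31. Without the replicate block 12 members fell and 0 rose.

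**Figure D1:**
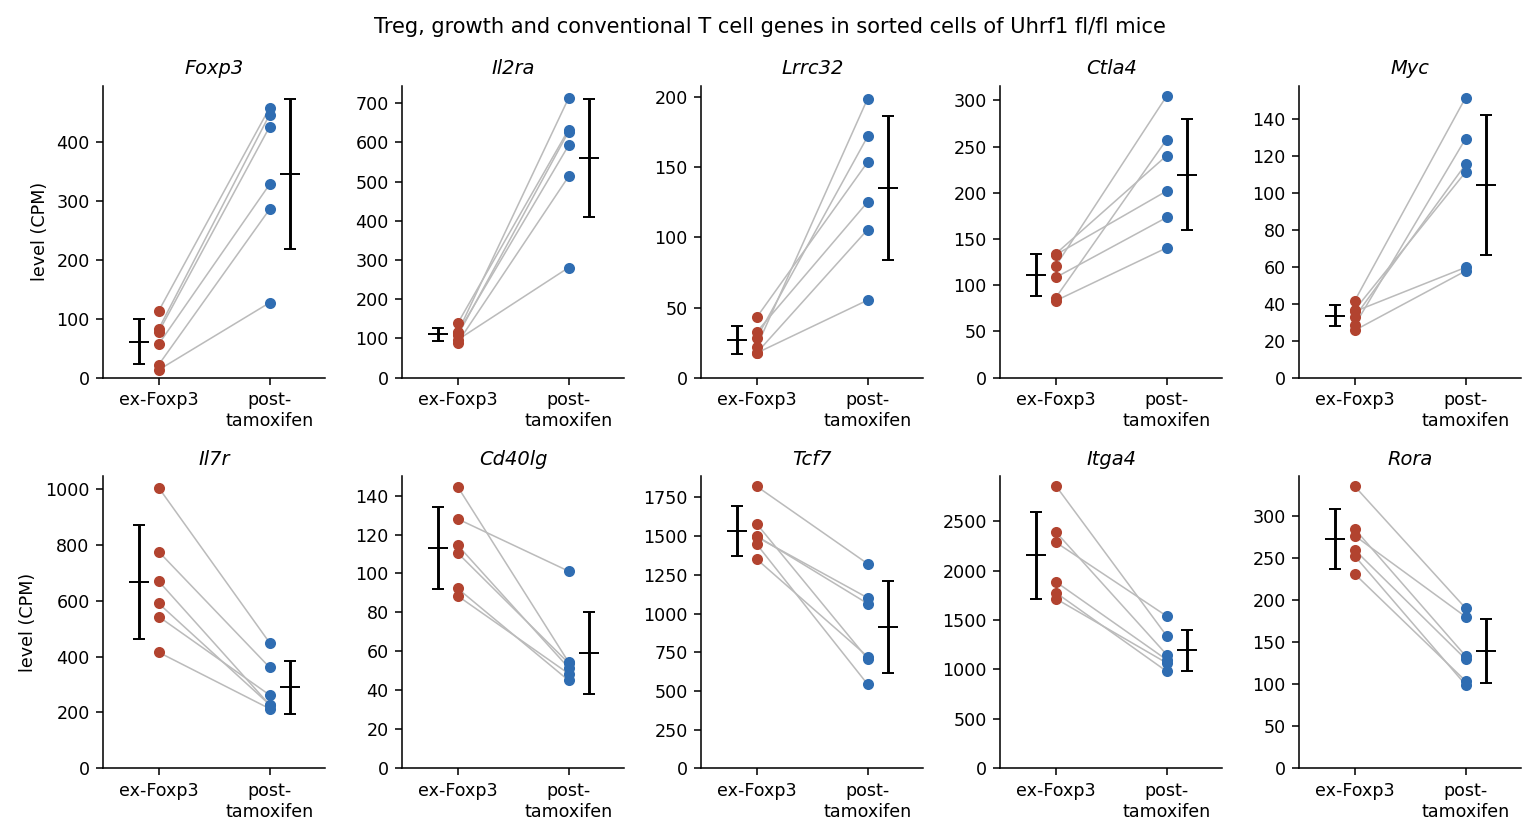
Levels of 10 genes in CPM (linear axes from 0) in the 6 ex-Foxp3 libraries (left) and the 6 post-tamoxifen libraries (right) of Uhrf1fl/fl mice, with lines joining libraries of the same number and bars giving the mean ± SD. Foxp3, Il2ra, Lrrc32, Ctla4 and Myc lie lower in ex-Foxp3 cells, and Il7r, Cd40lg, Tcf7, Itga4 and Rora lie higher, in all 6 pairs.

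Part of the IL-2 signalling genes fell with Il2ra. Of 15 listed genes of the IL-2 receptor and STAT5 tested, 7 fell and 0 rose, against 10.2% and 7.44% of all genes. The list's median log2 fold change was -0.39. Il2ra, Il2rb, Socs2 and Cish were also counted as lower in the Treg core list. Cish is named here after its values were seen. Il2rb, the shared beta chain, was at 369 to 569.5 CPM (median 487) in ex-Foxp3 cells, against 482 to 828 CPM (median 687) in post-tamoxifen cells, and its log2 fold change was -0.48 ± 0.13 (SE, adjusted p = 0.0231). That call was lost without pair 4 or pair 5 and in numbers 1 to 3 alone. Socs2, a feedback inhibitor induced by STAT5, was lower in every library of ex-Foxp3 cells, at 20 to 42.7 CPM (median 29.8) in ex-Foxp3 cells, against 45.6 to 63.5 CPM (median 56.1) in post-tamoxifen cells, log2 fold change -0.90 (adjusted p = 0.000135). Pim1, a kinase induced by cytokine receptors, and Lta, the cytokine lymphotoxin alpha, had log2 fold changes of -0.50 (adjusted p = 0.000525) and -1.29 (adjusted p = 0.0014). Without pair 4, 4 of the 15 fell, in numbers 1 to 3 alone 3 of the 15 fell, and in numbers 4 to 6 alone 9 of the 15. Il4ra, the receptor chain for IL-4, was at 99 to 144 CPM (median 126) in ex-Foxp3 cells, against 147 to 283 CPM (median 207) in post-tamoxifen cells, without overlap, log2 fold change -0.76 (adjusted p = 9.91e-05). Bcl2l11, which encodes the proapoptotic protein BIM, fell by 0.60 on the log2 scale (adjusted p = 0.00138) and lost its call in numbers 1 to 3 alone.

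Among 13 receptors of the TNF receptor superfamily tested, 4 fell and 2 rose, against 10.2% and 7.44% of all genes. Members also counted as lower in the Treg core list included Tnfrsf9 and Tnfrsf4. Tnfrsf9 (4-1BB), a costimulatory receptor of activated Treg cells, was at 9.72 to 59.9 CPM (median 28.9) in ex-Foxp3 cells, against 24.2 to 120.3 CPM (median 92.4) in post-tamoxifen cells, and its log2 fold change was -1.61 ± 0.28 (SE, adjusted p = 0.00482). Tnfrsf4 (OX40) was at 102 to 160.4 CPM (median 109.5) in ex-Foxp3 cells, against 117 to 335 CPM (median 180.1) in post-tamoxifen cells, log2 fold change -0.73 (adjusted p = 9.91e-05). The ranges of both receptors overlapped, though each was lower in ex-Foxp3 cells in all 6 pairs. With no block 2 of the 13 fell and 1 rose, and Tnfrsf9 was no longer called.

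Genes that Foxp3 is known to keep low changed in both directions. Of 17 such genes tested, 6 rose and 3 fell, against 7.44% and 10.2% of all genes. Their median log2 fold change was 0.02. Il7r, the IL-7 receptor chain on which resting conventional T cells depend, was at 415 to 1004 CPM (median 629.9) in ex-Foxp3 cells, against 214 to 449.6 CPM (median 245) in post-tamoxifen cells. Cd40lg, the helper signal from T cells to B cells and dendritic cells, was at 88.5 to 145 CPM (median 113) in ex-Foxp3 cells, against 45.1 to 101 CPM (median 52.8) in post-tamoxifen cells. Their log2 fold changes were 1.18 ± 0.08 (SE, adjusted p = 2.04e-08) and 0.93 ± 0.13 (SE, adjusted p = 4.79e-05), higher in all 6 pairs, and of the post-tamoxifen libraries library 3 alone reached into the ex-Foxp3 range of either gene. Tnfsf8 (CD30 ligand) was at 257 to 301 CPM (median 274) in ex-Foxp3 cells, against 122 to 178 CPM (median 144) in post-tamoxifen cells, and Tcf7, the factor TCF-1 of naive and memory T cells, at 1351 to 1821 CPM (median 1498) in ex-Foxp3 cells, against 543 to 1322 CPM (median 893) in post-tamoxifen cells. Neither overlapped between the populations, with log2 fold changes of 0.89 ± 0.09 (SE, adjusted p = 1.17e-06) and 0.79 ± 0.12 (SE, adjusted p = 0.00118). Themis, a T cell receptor signalling protein, rose by 0.67 on the log2 scale (adjusted p = 3.50e-05). The genome organizer Satb1 was not called over all 6 pairs, at 134 to 485 CPM (median 277) in ex-Foxp3 cells, against 319 to 602 CPM (median 461) in post-tamoxifen cells, log2 fold change -0.85 (adjusted p = 0.187). Its log2 fold change was -0.04 (adjusted p = 0.819) in numbers 1 to 3 alone and -1.67 (adjusted p = 1.62e-63) in numbers 4 to 6 alone. With 3 pairs, each of these fits takes its variance largely from other genes, so its p does not measure the spread between mice.

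Naive and central T cell genes were divided, with 3 of 20 tested higher and 5 lower, against 7.44% and 10.2% of all genes. Klf2 and S1pr1, the factor and the receptor that let T cells leave lymph nodes, were not called, with log2 fold changes of 0.26 (adjusted p = 0.368) and 0.21 (adjusted p = 0.098). The list's median log2 ratio per pair was 0.24, 0.07 and 0.24 in pairs 1 to 3, and -0.52, -0.55 and -0.51 in pairs 4 to 6. Fitted alone, numbers 1 to 3 gave 6 higher and 2 lower of 20, and numbers 4 to 6 gave 2 higher and 12 lower of 23. The fit with no block had 2 naive and central genes higher and 3 lower.

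Among effector and memory genes more rose than fell. Of 24 tested, 10 rose and 1 fell, with a median of 0.23, where 7.44% and 10.2% of all genes rose and fell. The integrin chains Itga4 and Itgb1, which pair as VLA-4 and take T cells into inflamed tissue, had log2 fold changes of 0.82 ± 0.08 (SE, adjusted p = 7.99e-07) and 0.87 ± 0.11 (SE, adjusted p = 0.000209). Itga4 was at 1716 to 2858 CPM (median 2087) in ex-Foxp3 cells, against 981 to 1539.9 CPM (median 1124) in post-tamoxifen cells. Itgb1 was at 1363 to 3191 CPM (median 2434) in ex-Foxp3 cells, against 736 to 1978 CPM (median 1358) in post-tamoxifen cells. The ranges of Itga4 stood apart and those of Itgb1 overlapped. Ahnak, a large scaffold protein of effector T cells, was at 4211 to 7175 CPM (median 5358) in ex-Foxp3 cells, against 1840.0 to 4450.2 CPM (median 2723) in post-tamoxifen cells, log2 fold change 0.94 (adjusted p = 1.53e-07). Il18r1, the receptor chain for IL-18, was at 433 to 1202 CPM (median 584) in ex-Foxp3 cells, against 162 to 627 CPM (median 293) in post-tamoxifen cells, log2 fold change 1.08 (adjusted p = 2.80e-07). Cd44, the hyaluronan receptor used to mark antigen-experienced T cells, rose by 0.54 on the log2 scale (adjusted p = 0.000551). Each of these 5 genes was higher in ex-Foxp3 cells in all 6 pairs. Without the replicate block 2 of the 24 rose and 0 fell, and Itgb1, Il18r1 and Cd44 lost their calls. Without pair 5, 7 rose and 0 fell.

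The other helper lineages gave part of their genes. The Th1 and cytotoxic list had 7 higher and 2 lower of 19 tested, and the follicular helper list 6 higher and 1 lower of 17. Of all genes 7.44% rose and 10.2% fell. Il18r1, Il18rap and Ccl5 were counted as higher both in the Th1 and cytotoxic list and among the effector and memory genes. The Th1 and cytotoxic genes that fell were Gzmb and Il12rb2, log2 fold changes -1.76 and -1.47 (adjusted p = 0.00327 and 0.0242). The follicular helper gene that fell was Folr4, log2 fold change -0.38 (adjusted p = 0.00507). These fallen genes, and Il18rap and Ccl5, are named here after their values were seen. In numbers 1 to 3 alone 4 follicular helper genes rose and 0 fell, and in numbers 4 to 6 alone 13 rose and 1 fell. Stat4, which carries the IL-12 signal, was at 233 to 269 CPM (median 252) in ex-Foxp3 cells, against 128 to 199 CPM (median 171) in post-tamoxifen cells, without overlap, log2 fold change 0.56 (adjusted p = 0.000103). Tbx21, the Th1 factor T-bet, was at 36.4 to 82.3 CPM (median 61.1) in ex-Foxp3 cells, against 12.7 to 71.3 CPM (median 33.2) in post-tamoxifen cells, and its overlapping ranges gave a log2 fold change of 0.75 (adjusted p = 0.00188). Runx3, its partner in Th1 and cytotoxic cells, had a log2 fold change of 0.66 (adjusted p = 8.19e-05). Slamf6, a follicular helper and stem-like T cell receptor, was at 338 to 418 CPM (median 387) in ex-Foxp3 cells, against 228 to 300.0 CPM (median 255) in post-tamoxifen cells, without overlap, log2 fold change 0.53 (adjusted p = 8.20e-05). Sostdc1, a BMP and Wnt antagonist made by follicular helper cells, and Pdcd1, which encodes PD-1, rose by 1.74 and 0.65 on the log2 scale (adjusted p = 0.000283 and 0.00171). Rora, a nuclear receptor of Th17 and tissue Treg cells, was at 231 to 335 CPM (median 268) in ex-Foxp3 cells, against 99.1 to 190.2 CPM (median 132) in post-tamoxifen cells, log2 fold change 0.98 (adjusted p = 1.29e-06). Ccr6, a chemokine receptor of Th17 cells, fell to a median of 9.20 CPM in ex-Foxp3 cells, against 19.1 CPM in post-tamoxifen cells. Its log2 fold change was -1.0 (adjusted p = 0.00627). Without the block 2 Th1 genes and 3 follicular helper genes rose, and Tbx21, Runx3 and Pdcd1 were no longer called.

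Effector Treg genes were split, with 5 of 27 tested higher and 4 lower, where 7.44% and 10.2% of all genes were. Id2, an inhibitor of E proteins found in effector T cells, was at 136 to 419 CPM (median 242) in ex-Foxp3 cells, against 49.4 to 284 CPM (median 102) in post-tamoxifen cells, and its log2 fold change was 1.17 ± 0.14 (SE, adjusted p = 0.000128). Icos, a costimulatory receptor, and Maf, a factor of IL-10-making T cells, were not called, with log2 fold changes of 0.29 (adjusted p = 0.163) and 0.38 (adjusted p = 0.202). Of 12 inhibitory receptors and ectonucleotidases tested, a separate list, 1 rose and 3 fell, against 7.44% and 10.2% of all genes. Havcr2 (TIM-3), an inhibitory receptor of that list, fell by 1.40 on the log2 scale (adjusted p = 0.011). The median log2 ratio of the effector Treg list was -0.27, -0.52 and -0.02 in pairs 1 to 3, and 0.28, 0.48 and 0.53 in pairs 4 to 6. Without the block 2 effector Treg members rose and 1 fell, and Id2 and Havcr2 lost their calls.

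**Figure D2:**
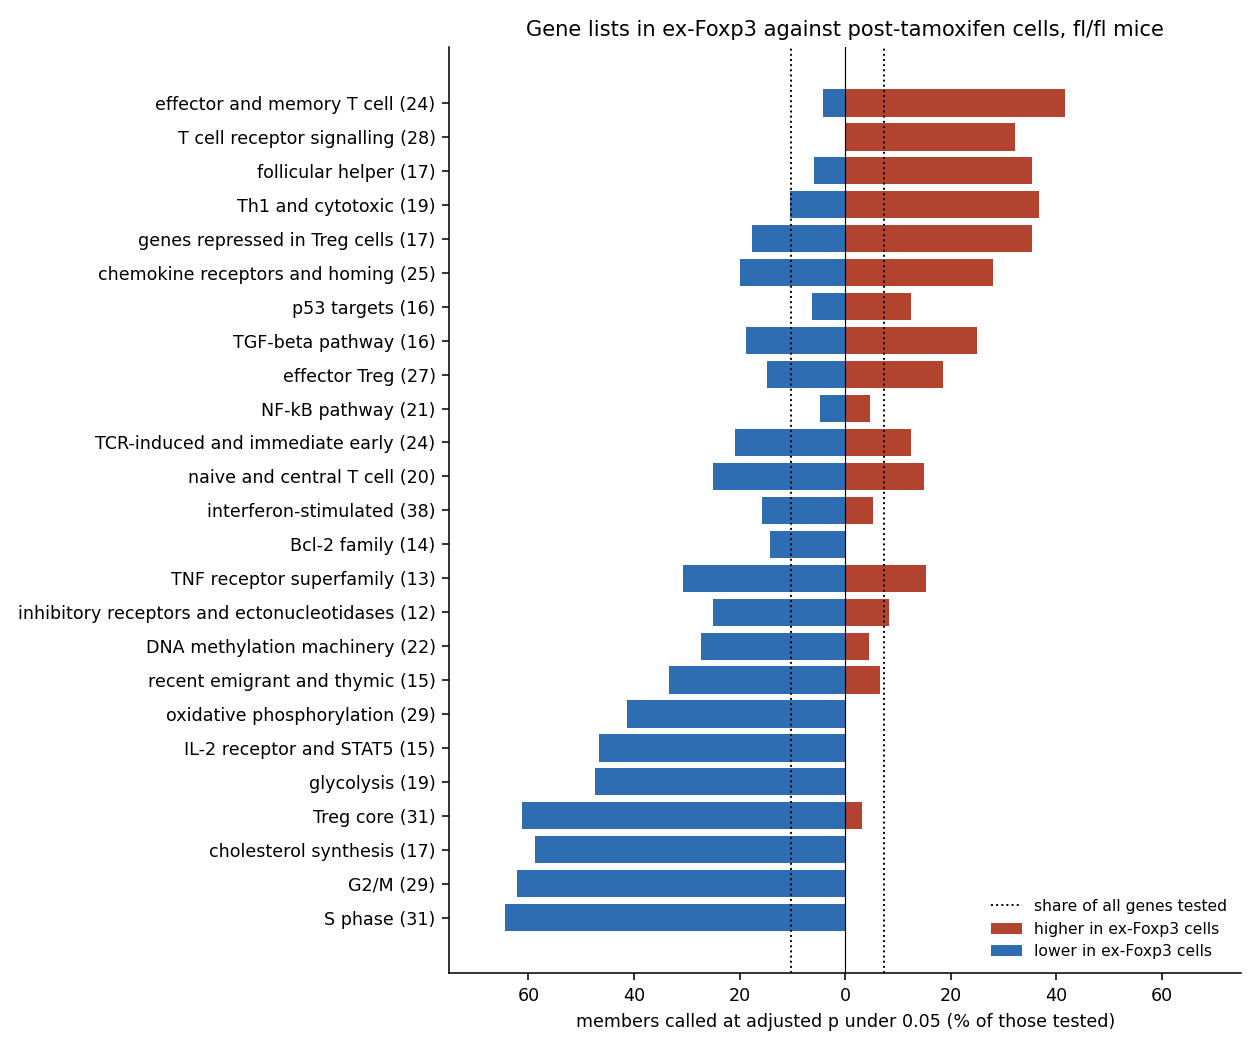
Percent of the tested members of each gene list (with at least 10 tested) that were called higher (right) and lower (left) in ex-Foxp3 than in post-tamoxifen cells of Uhrf1fl/fl mice, in edgeR's test with the replicate block. Dotted lines mark the share of all genes, 7.44% higher and 10.2% lower; G2/M (62.1% lower), Treg core (61.3% lower) and S phase lie far to the lower side, and effector and memory genes to the higher side.

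Homing and thymic genes included steep falls. Ccr9, the gut and thymus homing receptor kept for a time by recent thymic emigrants, was at 0 to 4.22 CPM (median 0.952) in ex-Foxp3 cells, against 2.65 to 25.9 CPM (median 12.5) in post-tamoxifen cells, and its log2 fold change was -3.29 ± 0.59 (SE, adjusted p = 0.00114). Sox4, a factor of developing thymocytes, was at 0 to 4.22 CPM (median 1.49) in ex-Foxp3 cells, against 2.66 to 28.5 CPM (median 16.0) in post-tamoxifen cells, lower in 5 of 6 pairs, log2 fold change -3.08 ± 0.62 (SE, adjusted p = 0.00424). Both were also near 0 in labeled Treg cells, with medians of 0.425 and 0 CPM. Both tdTomato-positive populations thus held little of either gene. Of the 15 emigrant and thymic genes tested 5 fell and 1 rose, and of 25 homing genes 7 rose and 5 fell. Of all genes 7.44% rose and 10.2% fell. Without pair 2 the emigrant list had 1 of 13 lower and 1 higher, and without the block 2 homing genes rose and 3 fell. Itgae, the integrin chain CD103, was at 47.8 to 169 CPM (median 55.7) in ex-Foxp3 cells, against 57.8 to 385 CPM (median 101) in post-tamoxifen cells, log2 fold change -0.79 (adjusted p = 0.000242), and lost its call without the block.

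T cell receptor signalling genes included no fall. Of 28 tested, 9 rose and 0 fell, against 7.44% and 10.2% of all genes, with a median of 0.05. Cd4 itself was at 1139 to 1280.4 CPM (median 1218) in ex-Foxp3 cells, against 785 to 1086 CPM (median 890.2) in post-tamoxifen cells, log2 fold change 0.42 (adjusted p = 0.00026). Ptpn22 and Ubash3a, phosphatases that restrain the receptor, had log2 fold changes of 0.46 (adjusted p = 0.000175) and 0.40 (adjusted p = 0.00239), and the 3 genes did not overlap between the populations. Numbers 1 to 3 alone gave 14 higher and 0 lower, and numbers 4 to 6 alone gave 6 higher and 6 lower. Without the block 4 rose. Of 24 immediate early and receptor-induced genes, 3 rose and 5 fell, against 7.44% and 10.2% of all genes. Myc, the growth regulator, was at 25.7 to 41.8 CPM (median 34.4) in ex-Foxp3 cells, against 57.9 to 152 CPM (median 114) in post-tamoxifen cells, without overlap, log2 fold change -1.61 ± 0.15 (SE, adjusted p = 1.84e-06). Nr4a1, a direct reporter of receptor signalling, fell by 0.84 on the log2 scale (adjusted p = 0.00139), lower in 5 of 6 pairs, and Jun fell by 1.45 on the log2 scale (adjusted p = 0.00104). Both lost their calls without the block, which left 1 gene higher and 1 lower. Rgs1, a brake on chemokine receptor signalling that also belongs to the Treg core list, was at 55.8 to 139 CPM (median 81.2) in ex-Foxp3 cells, against 98.6 to 280.0 CPM (median 212) in post-tamoxifen cells, log2 fold change -1.16 (adjusted p = 7.28e-06).

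The TGF-beta receptors moved apart. Tgfbr2, the ligand-binding chain, was at 423 to 578 CPM (median 476) in ex-Foxp3 cells, against 252 to 357 CPM (median 345) in post-tamoxifen cells, and its log2 fold change was 0.52 ± 0.10 (SE, adjusted p = 0.00206). Tgfbr1, the signalling chain, was at 72.3 to 87.0 CPM (median 80.8) in ex-Foxp3 cells, against 79.5 to 179 CPM (median 120.2) in post-tamoxifen cells, log2 fold change -0.67 ± 0.12 (SE, adjusted p = 0.000895). Of 16 genes of the pathway tested 4 rose and 3 fell, against 7.44% and 10.2% of all genes. The largest fall was that of Lrrc32.

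Division genes were lower in ex-Foxp3 cells. Over all genes 10.2% fell and 7.44% rose. Of 31 S phase and 29 G2/M genes tested 20 and 18 fell and 0 rose, with medians of -1.05 and -1.89. Members low in ex-Foxp3 cells, such as Cdc6, could pass the filter on level through the post-tamoxifen libraries. These counts and medians are therefore no separate support for a fall. The promoters of 3 division genes are shown for their motifs. Late cell cycle genes share a cell cycle homology region (CHR) and CCAAT boxes, and S phase genes an E2F site. Each stretch is the 250 bases before the RefSeq transcript start (GRCm38.p6), 5′ to 3′ on the gene's strand, with matches to the searched motifs in capitals. Ncapg, a condensin subunit, lies at chr5:45669675-45669924 (plus strand) and has TTTGAA and the CCAAT box read on the other strand as ATTGG. Ccnb2, cyclin B2, lies at chr9:70421555-70421804 (minus strand) and has TTTGAA and 3 CCAAT boxes. Chaf1a, a subunit of the histone chaperone that loads nucleosomes behind the fork, lies at chr17:56040166-56040415 (plus strand) and has TTCCCGC and CCAAT.
Ncapg: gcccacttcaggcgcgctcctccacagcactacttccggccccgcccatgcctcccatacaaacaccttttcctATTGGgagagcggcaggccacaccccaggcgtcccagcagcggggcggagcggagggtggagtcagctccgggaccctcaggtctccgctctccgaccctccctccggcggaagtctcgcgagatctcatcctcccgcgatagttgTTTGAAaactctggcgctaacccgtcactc
Ccnb2: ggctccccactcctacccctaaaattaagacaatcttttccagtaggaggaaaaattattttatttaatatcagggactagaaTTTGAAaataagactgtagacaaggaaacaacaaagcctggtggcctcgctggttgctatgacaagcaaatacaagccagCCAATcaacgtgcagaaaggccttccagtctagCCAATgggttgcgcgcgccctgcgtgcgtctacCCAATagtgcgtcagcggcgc
Chaf1a: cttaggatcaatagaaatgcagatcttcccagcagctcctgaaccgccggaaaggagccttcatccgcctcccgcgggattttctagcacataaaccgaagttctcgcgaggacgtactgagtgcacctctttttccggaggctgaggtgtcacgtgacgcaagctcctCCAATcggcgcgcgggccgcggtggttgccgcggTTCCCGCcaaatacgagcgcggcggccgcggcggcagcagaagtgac

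The motifs searched, on both strands, were TTCCCGC or TTGGCGC for E2F, TTTGAA for the CHR and CCAAT for the CCAAT box. A window could be taken for 6494 of the 9212 genes. Among these, 41.7% of the 24 G2/M genes held TTTGAA and 83.3% held CCAAT, against 9.99% and 37.5% of all windows. Of the 27 S phase genes with a window 40.7% held an E2F match, against 11.1% of all windows. Over all called genes the shares were closer to the background: TTTGAA was found in 7.61% of windows of genes that rose and 12.5% of those that fell, and an E2F match in 8.03% and 13.3%. A match describes the letters in the window and does not show that a factor bound there.

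The levels of the division genes followed the replicate numbers. Ncapg was at 4.10 to 22.4 CPM (median 7.03) in ex-Foxp3 cells, against 10.6 to 108 CPM (median 40.8) in post-tamoxifen cells, log2 fold change -2.29 ± 0.25 (SE, adjusted p = 5.86e-06). Ccnb2 was at 4.51 to 18.6 CPM (median 9.78) in ex-Foxp3 cells, against 9.25 to 103 CPM (median 34.8) in post-tamoxifen cells, log2 fold change -1.89 ± 0.26 (SE, adjusted p = 7.54e-05), and Chaf1a at 2.68 to 14.7 CPM (median 8.33) in ex-Foxp3 cells, against 9.22 to 77.0 CPM (median 35.9) in post-tamoxifen cells, log2 fold change -1.99 ± 0.25 (SE, adjusted p = 2.92e-05). The high values were those of post-tamoxifen libraries 1 to 3, and the ranges of all 3 genes overlapped through libraries 4 to 6. Rrm2, a ribonucleotide reductase subunit, and Kif4, a chromosome motor, had log2 fold changes of -2.57 (adjusted p = 8.01e-07) and -2.51 (adjusted p = 1.57e-06). Pole, the leading-strand polymerase, and Cdc6, which loads the replicative helicase, had log2 fold changes of -1.72 (adjusted p = 1.55e-06) and -2.94 (adjusted p = 2.57e-05). Mki67, the proliferation marker, and Top2a were not called over all 6 pairs, with log2 fold changes of -1.30 (adjusted p = 0.112) and -1.77 (adjusted p = 0.0564). Fitted alone, numbers 1 to 3 had both lower, by log2 fold changes of -2.16 (adjusted p = 1.92e-15) and -2.61 (adjusted p = 7.40e-16). Numbers 4 to 6 had both lower too, by -0.29 (adjusted p = 0.0497) and -0.66 (adjusted p = 0.000243) on the log2 scale. Here too the fits of 3 pairs take their variance largely from other genes.

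Pair by pair, the median log2 ratio of the G2/M list was -2.46, -2.40 and -2.59 in pairs 1 to 3, and -0.06, -0.60 and -0.67 in pairs 4 to 6. For the S phase list it was -1.39, -1.19 and -1.36, and then -0.23, -0.41 and -0.45. All 6 pairs were below 0 in both lists, where the medians over all genes tested ran from -0.004 to 0.04. In pair 4 the summed levels were nearly equal. Its G2/M sums were 482 CPM in ex-Foxp3 and 484 CPM in post-tamoxifen cells, and its S phase sums 1003 and 1005 CPM. Fitted alone, numbers 1 to 3 gave 31 of 31 G2/M genes and 31 of 33 S phase genes lower, and numbers 4 to 6 gave 4 of 26 and 6 of 29. Members too low in a set of libraries were not tested in it, so these counts cover different members. Labeled Treg libraries 1 to 3 of the same mice also held more G2/M RNA, 3073 to 4980 CPM, than labeled libraries 4 to 6, with 487 to 596 CPM. Ex-Foxp3 libraries 1 to 3 held 876 to 1269 CPM and libraries 4 to 6 482 to 547 CPM. Leaving out pair 1, 2 or 3 left 11, 11 and 10 G2/M genes called, and leaving out pair 3 left 13 S phase genes. Without the replicate block 7 G2/M and 17 S phase genes were called lower, and Ccnb2, Rrm2 and Kif4 lost their calls. In numbers 4 to 6 alone Ccnb2 and Chaf1a were not called.

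**Figure D3:**
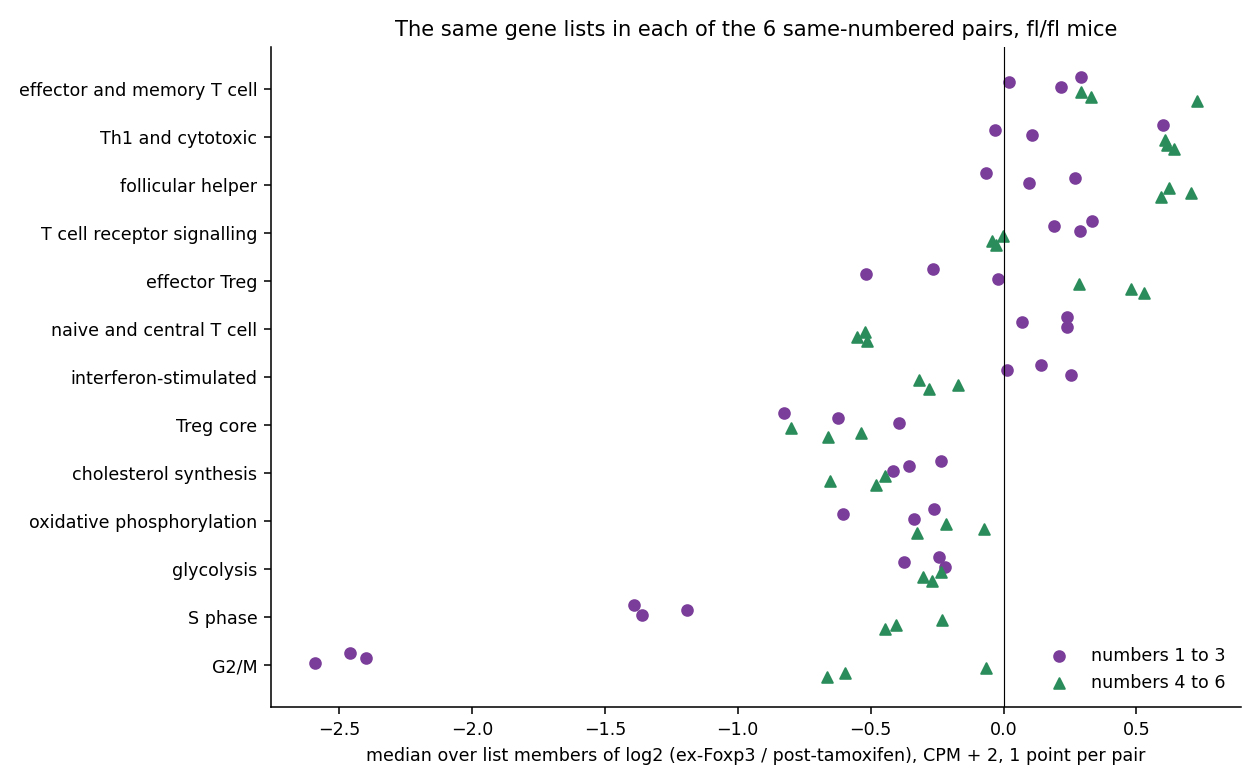
Median over list members of the log2 ratio (CPM + 2) of ex-Foxp3 over post-tamoxifen cells for 13 gene lists, 1 point per pair of libraries with the same number; circles are pairs 1 to 3 and triangles pairs 4 to 6. Treg core, S phase and G2/M lie below 0 in every pair, with G2/M between -2.59 and -2.40 in pairs 1 to 3 and between -0.67 and -0.06 in pairs 4 to 6, and naive and effector Treg genes change sign between the sets of pairs.

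Of 22 genes of the DNA methylation machinery tested, 6 fell and 1 rose, against 10.2% and 7.44% of all genes. Dnmt1, the maintenance methyltransferase that UHRF1 recruits, was at 276 to 350.2 CPM (median 300.2) in ex-Foxp3 cells, against 313 to 594 CPM (median 395) in post-tamoxifen cells, and its log2 fold change was -0.47 ± 0.10 (SE, adjusted p = 0.00283). Dnmt3a, which methylates unmodified DNA, was at 145 to 205 CPM (median 195) in ex-Foxp3 cells, against 160.4 to 311 CPM (median 243) in post-tamoxifen cells, log2 fold change -0.40 (adjusted p = 0.00171). Tet1, an oxidase of 5-methylcytosine, was at 12.7 to 26.4 CPM (median 18.6) in ex-Foxp3 cells, against 13.8 to 55.1 CPM (median 32.9) in post-tamoxifen cells, log2 fold change -0.73 (adjusted p = 0.0148). The ranges of all 3 overlapped, and Dnmt1 lost its call in numbers 4 to 6 alone and Tet1 without pair 5 or 6, without the block and in numbers 1 to 3 alone. Without pair 3 or pair 6, 4 members fell and 0 rose. Among 4 imprinted genes tested, which carry methylation on 1 parental copy, Impact rose, and Igf2r and Gnas fell. Impact, a regulator of the eIF2 kinase GCN2, was at 33.7 to 53.3 CPM (median 47.7) in ex-Foxp3 cells, against 15.2 to 30.7 CPM (median 25.1) in post-tamoxifen cells, log2 fold change 0.98 (adjusted p = 0.000173). Igf2r, the receptor that clears IGF2, was at 125 to 206 CPM (median 169) in ex-Foxp3 cells, against 174 to 432 CPM (median 299) in post-tamoxifen cells, log2 fold change -0.84 (adjusted p = 4.14e-06). Gnas, the stimulatory G protein subunit, had a log2 fold change of -0.29 (adjusted p = 0.0075), not called in numbers 4 to 6 alone. DNA methylation itself was not analysed here.

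Metabolic genes were lower, by smaller steps. Of 19 glycolysis genes tested 9 fell, of 29 respiratory chain genes 12 fell and of 17 cholesterol synthesis genes 10 fell, with 0 higher in each list. Of all genes 10.2% fell and 7.44% rose. The list medians were -0.30, -0.38 and -0.45. Hk2, the inducible hexokinase, was at 5.37 to 9.04 CPM (median 6.63) in ex-Foxp3 cells, against 12 to 24.7 CPM (median 16.5) in post-tamoxifen cells, without overlap, log2 fold change -1.31 ± 0.26 (SE, adjusted p = 0.00182). Ldha and Pkm, which encode lactate dehydrogenase and pyruvate kinase, fell by 0.39 and 0.40 on the log2 scale (adjusted p = 0.000836 and 0.00233). Tpi1, triosephosphate isomerase, was at 14.4 to 30.4 CPM (median 17.9) in ex-Foxp3 cells, against 28.1 to 57.1 CPM (median 41.2) in post-tamoxifen cells, log2 fold change -1.07 (adjusted p = 0.000154). Cox5b, a subunit of cytochrome c oxidase, was at 55.2 to 87.1 CPM (median 63.9) in ex-Foxp3 cells, against 84.8 to 127 CPM (median 105) in post-tamoxifen cells, log2 fold change -0.70 ± 0.11 (SE, adjusted p = 0.000133), and Sdhb, of succinate dehydrogenase, had a log2 fold change of -0.50 (adjusted p = 0.00539). In the sterol pathway Idi1 was at 9.43 to 32.8 CPM (median 15.3) in ex-Foxp3 cells, against 29.2 to 42.5 CPM (median 36.0) in post-tamoxifen cells, log2 fold change -1.15 (adjusted p = 0.000327). Hmgcs1, which makes HMG-CoA, had a log2 fold change of -0.59 (adjusted p = 0.00551). Without the block 5 glycolysis and 6 cholesterol genes fell, 6 cholesterol genes fell without pair 2 or pair 5, and 7 respiratory chain genes without pair 2. In numbers 1 to 3 alone Sdhb was not called, and in numbers 4 to 6 alone Pkm and Hmgcs1 were not. Myc and the division genes were lower in the same libraries, and their part in the metabolic values was not tested.

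Interferon-stimulated genes as a list were near the background. Of 38 tested, 6 fell and 2 rose, against 10.2% and 7.44% of all genes, with a median of -0.10. The 3 named genes that fell encode interferon-gamma-induced GTPases. Gbp2 was at 83.5 to 114 CPM (median 95.8) in ex-Foxp3 cells, against 118 to 195 CPM (median 162) in post-tamoxifen cells, log2 fold change -0.72 (adjusted p = 6.00e-05). Gbp3 was at 87.5 to 118 CPM (median 95.8) in ex-Foxp3 cells, against 115 to 216 CPM (median 173) in post-tamoxifen cells, log2 fold change -0.80 ± 0.11 (SE, adjusted p = 3.96e-05). Igtp was at 118 to 203 CPM (median 151) in ex-Foxp3 cells, against 208 to 284 CPM (median 228) in post-tamoxifen cells, log2 fold change -0.61 (adjusted p = 0.000584). Gbp2 and Igtp did not overlap and Gbp3 overlapped slightly. Numbers 1 to 3 alone gave 4 higher and 6 lower, and numbers 4 to 6 alone 1 higher and 12 lower. Without the block 4 fell and 0 rose, and 5 fell and 0 rose without pair 2.

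Macrophage markers were lower in ex-Foxp3 cells. Of the 15 largest falls among called genes that averaged a log2 CPM of 4 or more and were lower in all 6 pairs, Mrc1, Csf1r, C1qa and C1qb are on the myeloid marker list. Csf1r, the macrophage growth factor receptor, was at 0.383 to 6.66 CPM (median 3.21) in ex-Foxp3 cells, against 19.7 to 303 CPM (median 52.7) in post-tamoxifen cells, and Mrc1, the mannose receptor, at 0.767 to 2.85 CPM (median 1.72) in ex-Foxp3 cells, against 13.9 to 204 CPM (median 43.6) in post-tamoxifen cells. Complement gene C1qa was at 0 to 2.85 CPM (median 0.820) in ex-Foxp3 cells, against 8.30 to 111 CPM (median 14.5) in post-tamoxifen cells. Each was near 0 in ex-Foxp3 cells and present in every post-tamoxifen library, highest in library 3. Log2 fold changes were -4.81 ± 0.24 (SE, adjusted p = 4.45e-10) for Csf1r, -5.12 (adjusted p = 4.29e-10) for Mrc1 and -4.68 (adjusted p = 7.76e-07) for C1qa. Trf, which encodes the iron carrier transferrin, and Vcam1, an adhesion molecule of stroma and tissue macrophages, had log2 fold changes of -5.54 (adjusted p = 7.99e-09) and -4.12 (adjusted p = 1.38e-10). Of 22 listed myeloid markers 9 passed the filter on level and were tested. Of these 8 fell and 0 rose, with a median of -4.32, against 10.2% and 7.44% of all genes. Markers near 0 in ex-Foxp3 cells passed the filter through the post-tamoxifen libraries, so the count and median are no separate support for a fall. The summed marker level was 226 to 284 CPM in ex-Foxp3 cells, against 379 to 1658 CPM in post-tamoxifen cells and 245 to 335 CPM in labeled Treg cells. Without pair 3, 7 of 8 myeloid markers tested fell. H2-Ab1, an MHC class II chain of B cells and myeloid cells, was at 0 to 3.10 CPM (median 2.21) in ex-Foxp3 cells, against 14.1 to 149.5 CPM (median 39.8) in post-tamoxifen cells, log2 fold change -5.02 (adjusted p = 9.93e-08). Its partner Cd74 had a log2 fold change of -2.62 (adjusted p = 0.0751). The sum of B cell markers was 55.4 to 86.7 CPM in ex-Foxp3 cells, against 542 to 1453 CPM in post-tamoxifen libraries 1 to 3 and 112 to 134 CPM in libraries 4 to 6. The B cell marker Ms4a1 was at 0 to 1.23 CPM in ex-Foxp3 cells, against 5.50 to 17.5 CPM in post-tamoxifen libraries 1 to 3 and 0 CPM in libraries 4 to 6. The part of these other cells in the falls of genes that they share with T cells was not tested.

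**Figure D4:**
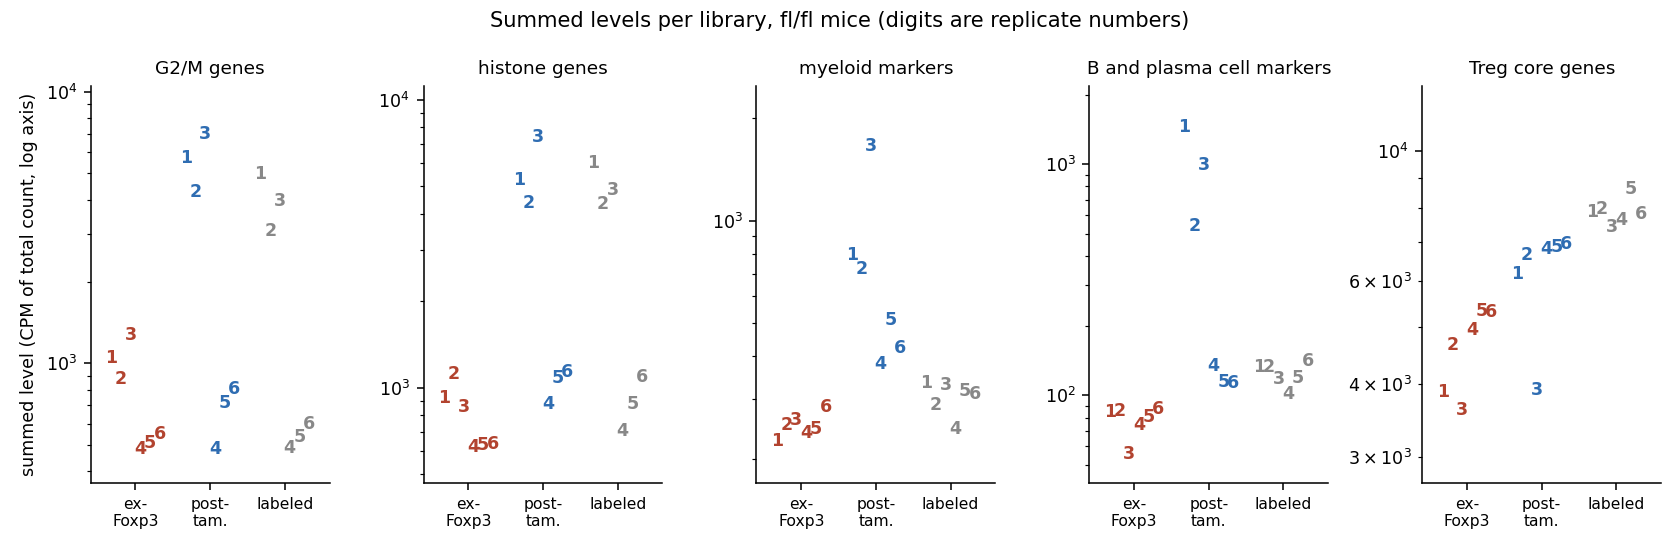
Summed level in CPM of the total count (log axis) of G2/M genes, histone genes, myeloid markers, B cell markers and Treg core genes in each ex-Foxp3, post-tamoxifen and labeled library of Uhrf1fl/fl mice; digits are the replicate numbers. Post-tamoxifen libraries 1 to 3 lie above libraries 4 to 6 in G2/M (4279 to 7007 CPM for 1 to 3, 484 to 806 CPM for 4 to 6), histone and B cell sums, and post-tamoxifen library 3 has the highest myeloid and the lowest Treg core sum of its group.

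The 15 largest rises among called genes that averaged a log2 CPM of 4 or more and were higher in all 6 pairs were led by Cpne7 and Itga7. Cpne7, a calcium-dependent membrane-binding copine, was at 32.1 to 102 CPM (median 63.3) in ex-Foxp3 cells, against 0.883 to 19 CPM (median 11.9) in post-tamoxifen cells, log2 fold change 2.46 ± 0.23 (SE, adjusted p = 3.13e-06). Itga7, a laminin-binding integrin chain, was at 23.3 to 33.3 CPM (median 28.8) in ex-Foxp3 cells, against 0.664 to 11.7 CPM (median 6.17) in post-tamoxifen cells, log2 fold change 2.17 ± 0.28 (SE, adjusted p = 4.18e-05). Rnf43, a ubiquitin ligase that removes Wnt receptors, was at 92.5 to 214 CPM (median 165) in ex-Foxp3 cells, against 36.6 to 68.0 CPM (median 52.1) in post-tamoxifen cells, log2 fold change 1.56 ± 0.13 (SE, adjusted p = 5.28e-07). All 3 were higher in every ex-Foxp3 library than in any post-tamoxifen library. Pde7a, a phosphodiesterase that breaks down cyclic AMP, was at 146 to 200.1 CPM (median 177) in ex-Foxp3 cells, against 45.1 to 95.1 CPM (median 71.2) in post-tamoxifen cells, log2 fold change 1.29 (adjusted p = 1.53e-07). Fam101b, a partner of filamin, and Dtx4, a ubiquitin ligase of the deltex family, also did not overlap, log2 fold changes 1.31 (adjusted p = 1.19e-05) and 1.31 (adjusted p = 0.000347). Slc26a11, an anion transporter, had a log2 fold change of 1.35 (adjusted p = 0.000115). Nebl, an actin-binding nebulin relative, and Camk2b, a calmodulin-dependent kinase, rose with overlapping ranges, log2 fold changes 1.71 (adjusted p = 2.03e-07) and 1.43 (adjusted p = 0.00014). Gp49a, whose call was lost without the block, is an immunoglobulin-like receptor with a close copy (Lilrb4) that may share its reads, and was at 9.58 to 50.3 CPM (median 28.0) in ex-Foxp3 cells, against 1.84 to 32.9 CPM (median 6.39) in post-tamoxifen cells, log2 fold change 1.43 (adjusted p = 0.00757). Ttn, the giant muscle protein titin, was at 866 to 4478 CPM (median 2466) in ex-Foxp3 cells, against 477 to 1131 CPM (median 765) in post-tamoxifen cells, log2 fold change 1.46 ± 0.35 (SE, adjusted p = 0.0433). Its call was lost when any pair except pair 3 was left out and in numbers 1 to 3 alone. Rnf43, Ttn, Gp49a and Camk2b were also high in labeled Treg cells, with medians of 130.0, 3427, 39.6 and 24.8 CPM, whereas Pde7a had 76.8 CPM there, close to the post-tamoxifen median.

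In control mice the same populations were compared over 5 pairs, with no library in common. Of 9098 genes tested, 526 (5.78%) were called, 296 (3.25%) higher and 230 (2.53%) lower in ex-Foxp3 cells. Leaving out pair 2, which holds the library that went against its label, gave 987 calls, 511 higher and 476 lower; leaving out pair 1, 3, 4 or 5 gave 553, 76, 46 and 77. Without the replicate block 297 were called. The Treg core values turned on pair 2. With it, 3 of 31 listed genes tested fell and 5 rose, with a median log2 fold change of -0.33, and without it 14 of 30 fell and 9 rose, with a median of -0.39, where 5.2% and 5.58% of all genes did. Foxp3 itself was not called over the 5 pairs, log2 fold change -1.73 ± 0.40 (SE, adjusted p = 0.0969), and fell without pair 2, log2 fold change -2.09 ± 0.10 (SE, adjusted p = 6.26e-08). Il2ra and Lrrc32 were not called over the 5 pairs either, log2 fold changes -1.64 ± 0.37 (SE, adjusted p = 0.0923) and -1.80 ± 0.43 (SE, adjusted p = 0.0923). Without pair 2 both fell, log2 fold changes -1.97 ± 0.11 (SE, adjusted p = 2.29e-07) and -2.16 ± 0.16 (SE, adjusted p = 2.79e-06). Over the 5 pairs Lad1 fell in controls, log2 fold change -3.49 ± 0.28 (SE, adjusted p = 2.60e-05), as did Ccr9, log2 fold change -2.32 ± 0.33 (SE, adjusted p = 0.00192). Itga4, Stat4, Rora and Pdcd1 rose in controls, by 0.85, 0.63, 0.98 and 1.29 on the log2 scale (adjusted p = 0.0211, 0.00381, 0.0381 and 0.00179). Of the division genes, 1 of 26 S phase and 0 of 22 G2/M genes fell in controls, with medians of -0.18 and -0.10. Without pair 2, 3 of 26 S phase and 0 of 21 G2/M genes fell, with medians of -0.24 and -0.32. Control post-tamoxifen libraries held 326 to 2031 CPM of the G2/M sum.

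Whether the change differed between the genotypes was tested as an interaction over the 22 libraries, as the floxed minus the control log2 fold change. Of 9718 genes tested 76 (0.782%) were called, 22 (0.226%) more positive and 54 (0.556%) more negative in floxed mice. At an unadjusted p under 0.05 there were 1442. Without control pair 2, 100 were called, 25 more positive and 75 more negative. Without the replicate block 1 gene was called, and leaving out other pairs gave 11 to 136. Foxp3 and Uhrf1 were not among the calls, with interactions of -0.91 ± 0.46 (SE, adjusted p = 0.396) and -1.55 ± 0.69 (SE, adjusted p = 0.331). Without control pair 2 those of Foxp3 and Uhrf1 were -0.54 and -1.22 (adjusted p = 0.361 and 0.482).

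The called interactions held histone genes and a few immune and metabolic genes. Gbp3 fell in floxed mice and had a log2 fold change of 0.38 ± 0.14 (SE, adjusted p = 0.134) in controls, an interaction of -1.18 ± 0.17 (SE, adjusted p = 0.00392). In controls without pair 2 it rose, log2 fold change 0.51 ± 0.14 (SE, adjusted p = 0.0352). The interaction was called in every alternative tried, without the block included, and stood at -1.31 (adjusted p = 0.000665) without control pair 2. Among the 15 interactions named here it was the only one called in every alternative. Ctla4 fell in floxed mice and had a log2 fold change of -0.17 ± 0.12 (SE, adjusted p = 0.512) in controls, an interaction of -0.81 ± 0.19 (SE, adjusted p = 0.0417), no longer called without control pair 2 (adjusted p = 0.0661). Itgae, Tpi1 and Cox5b were also more negative in floxed mice, by -1.60, -1.26 and -0.84 (adjusted p = 0.0496, 0.0236 and 0.0173). The 5 histone genes, which are made in S phase, ran from -2.13 for Hist4h4 to -5.22 for Hist1h2an. Histone RNA summed to 621 to 1118 CPM in ex-Foxp3 cells and 876 to 7438 CPM in post-tamoxifen cells of floxed mice, and to 540 to 1424 and 631 to 1563 CPM in the same populations of controls. Many histone genes are near-identical copies, so reads may be shared among them. The library kit takes total RNA, which keeps histone transcripts without a poly(A) tail.

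More positive in floxed mice were Zfp113, a zinc finger protein gene, Vipr1, the receptor for vasoactive intestinal peptide, Gdf11, a TGF-beta family ligand, Dzip1 and Themis. Gdf11 was at 43.0 to 55.2 CPM (median 48.7) in ex-Foxp3 cells, against 15.3 to 38.7 CPM (median 25.6) in post-tamoxifen cells in floxed mice, with a log2 fold change of -0.13 ± 0.15 (SE, adjusted p = 0.706) in controls and an interaction of 1.01 ± 0.22 (SE, adjusted p = 0.0323). Themis rose in floxed mice and had a log2 fold change of 0.10 ± 0.08 (SE, adjusted p = 0.57) in controls, an interaction of 0.57 ± 0.13 (SE, adjusted p = 0.0323), no longer called without control pair 2 (adjusted p = 0.0595). Vipr1 and Zfp113 had interactions of 1.07 ± 0.20 (SE, adjusted p = 0.0173) and 1.12 ± 0.22 (SE, adjusted p = 0.0182), and Dzip1 0.89 ± 0.20 (SE, adjusted p = 0.0403). Without control pair 2 the call of Hist1h4h was lost too (adjusted p = 0.059). Except for Gbp3 the named calls were lost without the replicate block. Gbp3, Hist1h2an, Hist2h4 and Hist4h4 kept theirs with any 1 pair left out, while the other 11 lost it without 2 to 8 of the 11 pairs. Histone sums were 4363 to 7438 CPM in floxed post-tamoxifen libraries 1 to 3 and 876 to 1134 CPM in libraries 4 to 6. Leaving out 1 pair does not remove libraries 1 to 3 together, so it cannot show whether the histone calls rest on them. Hist1h2an was not tested in floxed numbers 4 to 6 alone. DESeq2 gave no adjusted p for the interactions of the 5 histone genes and Tpi1. The Treg core list had 4 of 31 genes called more negative, against 0.556% of all genes, and 7 of 31 without control pair 2. The S phase and G2/M lists had 0 of 33 and 0 of 31 called, with median interactions of -0.72 and -1.58, and -0.70 and -1.24 without control pair 2. With 0.782% of all genes called, a count of 0 is near the background.

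**Figure D5:**
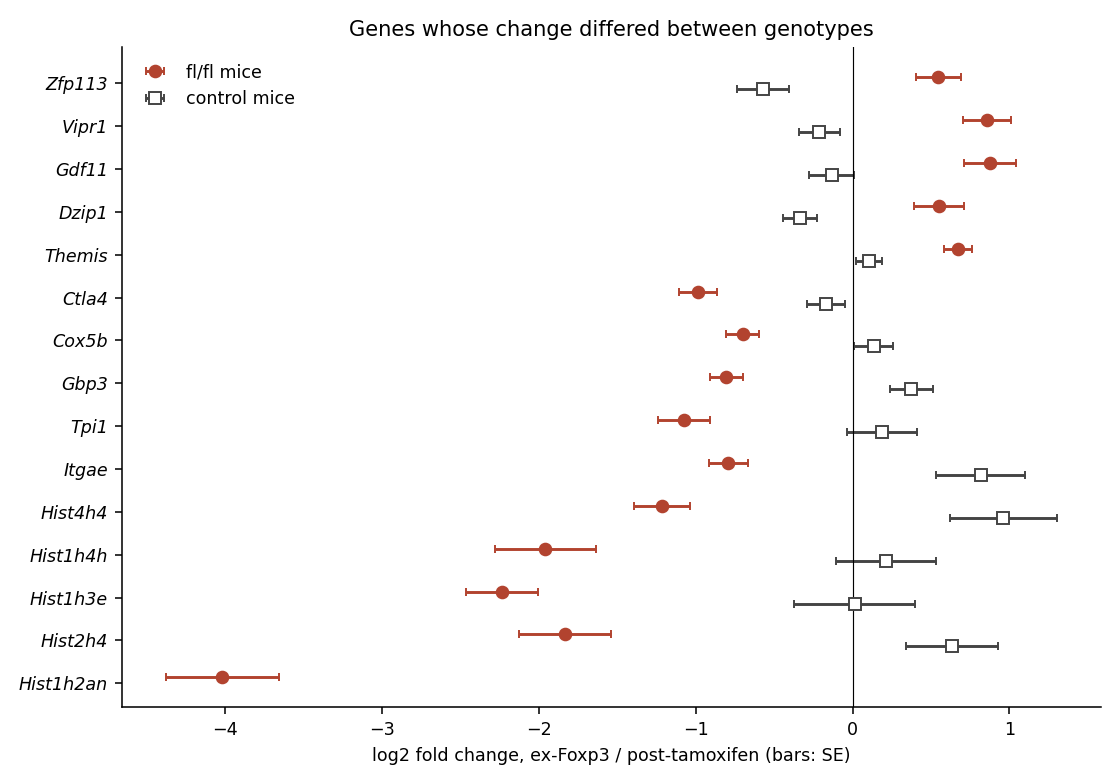
Log2 fold change ± SE of ex-Foxp3 over post-tamoxifen cells in Uhrf1fl/fl and in control mice for the 15 genes named with a called interaction, from edgeR fits of 12 and 10 libraries. Gbp3, Ctla4, Tpi1 and the histone genes are lower in ex-Foxp3 cells of floxed mice and near or above 0 in controls, and Gdf11, Vipr1 and Zfp113 are higher in floxed mice and at or below 0 in controls; Hist1h2an was not tested in controls.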

How the data were processed

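Mouse RNA was taken from sorted cells with the AllPrep DNA/RNA Micro Kit and sequenced from SMARTer Stranded Total RNA-Seq Kit v2 libraries, per the labels' protocols. The authors deposited a table of raw counts for 19434 genes, and the submitters' processing notes name bcl2fastq 2.17.1.14, TopHat2 2.1.0 and the builds mm10 and GRCm38. Annotation, strand setting and counter are not given in the sources used here. The 13 mitochondrial genes held 0 counts. Symbols were used, because gene identifiers were repeated across rows.

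Genes were filtered by group with filterByExpr and tested with edgeR 4.0.16 (R 4.3.3; TMM, robust quasi-likelihood, 2-sided, Benjamini-Hochberg over all genes tested). The fits held 12 floxed, 10 control and 22 libraries. Alternatives were no block, other sets of libraries, other size factors and filters, DESeq2 1.42.0, each pair left out, numbers 1 to 3 and 4 to 6 alone, and pairs 2, 4, 5 and 6 alone, the last chosen after seeing the data. Per-pair ratios used CPM + 2. Sums of markers are CPM of the total count.

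The replicate numbers in the titles give each number 1 library of each population. Deviations from the group means correlated between same-numbered floxed libraries in every pair (0.126 to 0.43), and in controls at 0.0322 to 0.137. In floxed mice 3 of 6 ex-Foxp3 libraries correlated best with their own number. No libraries agreed within sampling noise (lowest chi-square per degree of freedom 3.77). The labels call the samples biological replicates.

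Members and gene lists were chosen with earlier results of these data known. Some genes are on more than 1 list, so their calls are counted in each of them. Named genes were Foxp3 and Uhrf1, the 15 largest changes each way among called genes that averaged a log2 CPM of 4 or more and changed the same way in all 6 pairs, 4 called and 2 uncalled members of each list, and the 4 largest called interactions each way, of which the text names part; some genes are not reported here. Fits were tested on simulated data.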

Additional observations from a re-analysis of the deposited data

Results flagged for a closer look

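In 17 of 230 groups of 6 values, 6 of ex-Foxp3 and 11 of post-tamoxifen cells, 1 library stood apart from the other 5; chance gives about 1 in 20 groups.

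Post-tamoxifen library 3 accounted for many of them. It was highest for Csf1r (302.6 CPM), Trf (156.5 CPM), C1qa (110.7 CPM), Cd40lg (101.2 CPM) and the summed myeloid markers (1657.6 CPM). It was lowest for Ikzf2 (401.2 CPM), Tnfrsf9 (24.2 CPM) and the Treg core sum (3902.5 CPM). Ex-Foxp3 library 3 was highest for Fyb (1676.7 CPM), Ncapg (22.4 CPM) and Cdc6 (5.23 CPM).

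Pair 5 was highest for Jun in both populations, at 34.5 CPM in ex-Foxp3 and 82.2 CPM in post-tamoxifen cells, and ex-Foxp3 library 5 was highest for Tnfrsf4 (160.4 CPM). Post-tamoxifen library 1 was highest for Itgae (384.6 CPM) and lowest for Tgfbr2 (251.8 CPM). Ex-Foxp3 library 4 was lowest for Impact (33.7 CPM).

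The ex-Foxp3 against post-tamoxifen change differed between floxed and control mice by edgeR's interaction test for 15 named genes, as floxed minus control log2 fold change. It was more negative in floxed mice for Hist1h2an (-5.225), Hist2h4 (-2.467), Hist1h3e (-2.297), Hist1h4h (-2.189), Hist4h4 (-2.13), Itgae (-1.602), Tpi1 (-1.261), Gbp3 (-1.178), Cox5b (-0.8352) and Ctla4 (-0.8146). It was more positive for Zfp113 (1.12), Vipr1 (1.072), Gdf11 (1.013), Dzip1 (0.8856) and Themis (0.5714). Floxed libraries held no Y-linked counts, whereas the libraries of control numbers 2 and 3 did, at 318.3 to 454.7 CPM; the part of sex in these differences was not tested.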

How the results depend on the processing

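The floxed comparison gave 1626 calls, and 1046 without the replicate block, of which 1023 were shared. Other size factors, filters, sets of libraries and DESeq2 gave 1354 to 2176, and leaving out 1 pair gave 1135 to 1469. Scaling by total counts alone gave 805 higher and 862 lower, where TMM gave 685 and 941. In controls 526 calls became 297 without the replicate block and 791 with no filter on level, and leaving out 1 pair gave 46 to 987. The interaction gave 76 calls, 1 without the replicate block, 467 with no filter on level and 145 with DESeq2, and 11 to 136 with 1 pair left out. The causes were not tested. In deviations from the group means, with no block fitted, 3 of 6 ex-Foxp3 floxed libraries correlated best with their own number. Libraries 1, 4 and 5 correlated slightly better with another number, 0.261, 0.298 and 0.173 against 0.249, 0.294 and 0.154. Of 107 genes named with a floxed value, not counting those named after their values were seen, 96 were called. Of these, 63 were called in every alternative that tests them. Without the block 19 lost their call, and 7 did in numbers 1 to 3 alone and 8 in numbers 4 to 6 alone. No named gene changed direction while called. Depths of 1172214 to 2665449 counts per library limit genes of a few CPM, such as Ccr9 and Sox4 in ex-Foxp3 cells.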

Other observations

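Genes that rose covered longer stretches of the genome than genes that fell: the median span from start to end was 44.5 kb for the 685 that rose and 18.8 kb for the 941 that fell, against 24.3 kb for all 9212 tested. More of the fallen genes changed over 2-fold, 295 of 941, than of the risen genes, 91 of 685. These are counts over genes of the same 12 libraries and carry no test.

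Of 16 p53 target genes tested 2 rose and 1 fell, and of 14 genes of the Bcl-2 family 0 rose and 2 fell. Of 21 genes of the NF-kB pathway 1 rose and 1 fell. Over all genes tested 7.44% rose and 10.2% fell, so that these shares are near the background. Of 22 listed germline genes known to be silenced by DNA methylation, 1 passed the filter on level. This was Xlr4a, with a log2 fold change of 0.01, and the others were not tested.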
